A study of Mus musculus with 2 samples.

Results

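The genes described here encode the machinery of mitosis: the kinase that starts it, the checkpoint, the kinetochore and centromere, the motors of the spindle, the apparatus of cytokinesis, and the proteins that condense and separate chromosomes. A set of 42 named genes was taken by symbol from the 43346 mouse gene rows of the deposited tables, and all 42 were found. They were measured in 1 group of 2 libraries of total RNA from mouse liver at embryonic day 14.5, strain B6NCrl, with no genetic change or treatment given in the labels. Each library came from a single liver by the labels, which also describe the tissue as pooled male and female. The livers were collected on different days. Each library started from 10 ng of RNA longer than 200 nucleotides, to which ERCC spike-in controls were added. With no other group to set them against, the data allow no p-value. Values are given for replicate 1 and then replicate 2, with mean ± SD for some genes.

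In mitosis a cell condenses its replicated chromosomes, attaches each sister to opposite spindle poles through kinetochores, holds back until all are attached, and then cuts the links between sisters and divides the cytoplasm. Entry is driven by CDK1 bound to cyclin B, and exit by the anaphase-promoting complex, a ubiquitin ligase that marks cyclin B and securin for destruction. Most of these genes are transcribed late in the cell cycle and are low in resting cells. The liver at this age holds hepatoblasts and is a main site of blood formation, and dividing erythroid precursors are abundant in it.

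The libraries held 39998450 and 28848861 estimated reads, of which 37059776 and 26908926 lay on mouse genes. The liver label was checked against fixed markers. The 5 erythroid markers summed to 136479 and 130663 TPM and the 5 hepatocyte markers to 12313 and 13129 TPM, where TPM is a gene's share of a library's transcripts after scaling by transcript length. None of 5 neuronal markers reached 1 TPM in both livers, with sums of 0.65 and 0.46 TPM. Of 5 cardiac and skeletal muscle markers 1 did, Myl7 at 5.41 and 6.17 TPM, while Myh6 and Myod1 were listed at 0. Markers of blood lineages differed between the livers. All 5 neutrophil markers were higher in replicate 1, with sums of 1853 and 1348 TPM, and all 5 megakaryocyte markers were lower in replicate 1, with sums of 527 and 658 TPM. The 5 macrophage markers summed to 162 TPM in each liver.

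Each of the 42 genes was detected at 1 TPM or more in both livers, where 26.2% of all mouse gene rows were. At 10 TPM or more in both livers there were 41, all but Bub1, beside 12.4% of all gene rows. The median of the 42 genes was 50.5 and 54.4 TPM (mean 52.2 ± 2.74, SD, n = 2), and that of the 11375 genes detected in both livers was 9.20 and 10.1 TPM, so the mitotic median lay 5.49-fold and 5.38-fold above it. By mean level, all 42 stood above the median of the detected genes and 6 stood above their 95th percentile of 160 TPM. Together the 42 genes took 0.745% of reads on mouse genes in replicate 1 (exact binomial 95% interval 0.742 to 0.748) and 0.772% in replicate 2 (0.769 to 0.775). These intervals cover counting error alone. In whole tissue, fewer cells of a type and less RNA per cell cannot be told apart, so a level here does not separate the number of dividing cells from the RNA in each. A few genes held much of the total. Ube2c, Birc5, Cdk1, Ccnb1 and Ccnb2 were the 5 highest in both livers and held 39.6% and 38.7% of the TPM of the 42 genes, whereas the 5 lowest (Cenpe, Anln, Ttk, Espl1 and Bub1) held 1.93% and 2.05%.

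**Figure D1:**
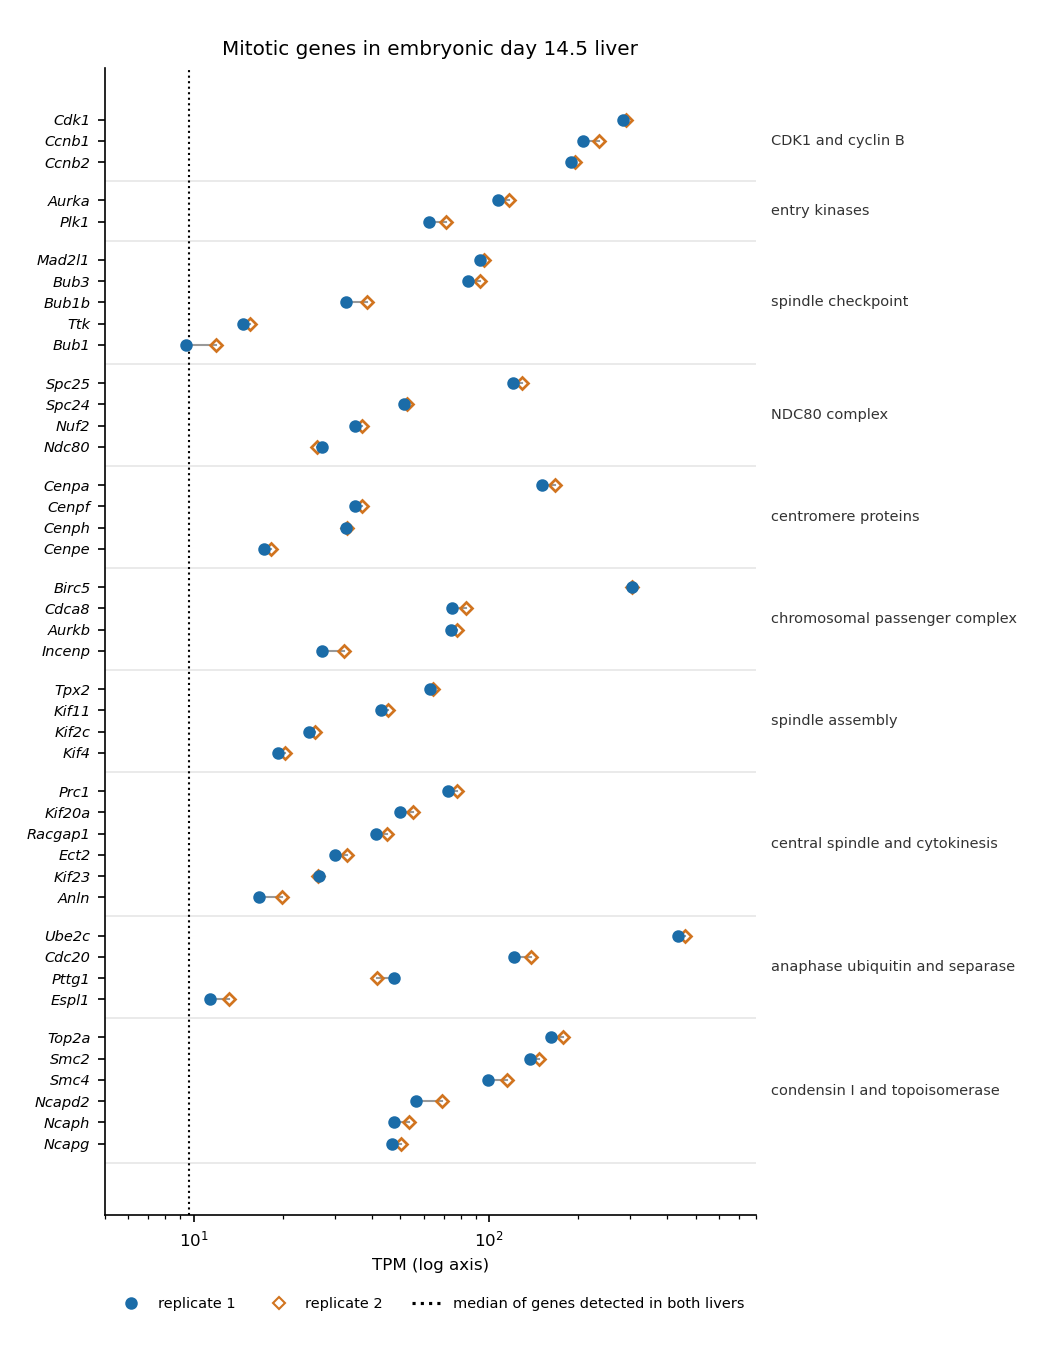
TPM of the 42 mitotic genes on a log axis, grouped by role, with a filled circle for replicate 1 and an open diamond for replicate 2. The dotted line marks the median mean TPM of genes detected in both livers, 9.66. Levels run from Bub1 at a mean of 10.6 TPM to Ube2c at 448 TPM, and within most genes the livers lie close together compared with that range.

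The promoters of many of the 42 genes shared sequence features. Late cell cycle genes are known for the cell cycle homology region (CHR, TTTGAA or TTCGAA), bound by the DREAM complex and by the MYBL2 and FOXM1 complexes, and for CCAAT boxes bound by the factor NF-Y. RefSeq promoters on build GRCm38.p6, running from 250 bases before to 50 bases after each annotated start, were matched by symbol for 36 of the 42 genes and not for Aurkb, Incenp, Kif20a, Smc4, Spc24 and Tpx2. Both strands were searched. These genes had 39 windows, since 3 genes had overlapping windows for different starts, and a gene was counted if any of its windows held the motif. A CHR match was present in 28 of 36 genes (77.8%), beside 21.7% of the 27025 genes in the promoter table, 20.2% of protein-coding genes and 16.9% of 8600 genes detected in both livers. A CCAAT match was present in 28 of 36 (77.8%), beside 41.1% of all genes, 42.3% of protein-coding genes and 43.5% of detected genes. Of the 36, 17 (47.2%) had 2 or more, beside 13.3%, 14.6% and 17.4% in the same order. Both motifs occurred in 25 of 36 (69.4%), beside 8.61% of all genes.

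Where the matches lay differed between the motifs. Counted in 1 window per gene, 26 of 37 CHR matches lay within 50 bases of the annotated start. Over all windows 26 of 36 genes (72.2%) had a CHR match that near, beside 6.12% of all genes. In the 250 bases before the start 15 of 36 genes (41.7%) had a CHR match, beside 19.6%, and in the 100 bases before it 9 of 36 genes (25%), beside 7.18%. In Plk1 the CHR covered positions 31 to 36 and in Aurka 33 to 38, counted from the first transcribed base as 1. CCAAT matches sat further upstream: in 1 window per gene, 56 of 59 lay before the start and 28 lay between 110 and 30 bases before it. Most of each window lies before the start, and these match positions were not counted over all genes. In the 250 bases before the start 27 of 36 genes (75%) had a CCAAT match, beside 37.5% of all genes. In the 100 bases before it 24 of 36 (66.7%) had 1, beside 21.6%. Neither motif was found in the windows of Birc5, Mad2l1, Ncaph, Nuf2 and Pttg1. These are letter matches in fixed windows, which depend on where the start is annotated, and no binding was measured.

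The promoters of Ube2c, Cdk1, Ccnb2 and Top2a are shown because these are the 4 genes with the highest mean TPM that had both a CHR and an upstream CCAAT match. Each is printed in the direction of transcription and ends at the base before the annotated start, with CHR and CCAAT matches in capitals. A match on the opposite strand reads TTCAAA for the CHR and ATTGG for CCAAT.
Ube2c (chr2:164769691-164769928, plus strand): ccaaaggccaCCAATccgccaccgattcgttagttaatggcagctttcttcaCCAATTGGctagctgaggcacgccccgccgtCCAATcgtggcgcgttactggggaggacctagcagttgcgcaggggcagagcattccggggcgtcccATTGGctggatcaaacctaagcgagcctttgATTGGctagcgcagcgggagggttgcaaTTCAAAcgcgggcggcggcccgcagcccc
Cdk1 (chr10:69352913-69353130, minus strand): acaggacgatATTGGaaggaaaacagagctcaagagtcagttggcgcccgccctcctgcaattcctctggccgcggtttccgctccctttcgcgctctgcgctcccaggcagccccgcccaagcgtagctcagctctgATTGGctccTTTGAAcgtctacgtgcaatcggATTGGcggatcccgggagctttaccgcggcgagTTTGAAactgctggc
Ccnb2 (chr9:70421555-70421731, minus strand): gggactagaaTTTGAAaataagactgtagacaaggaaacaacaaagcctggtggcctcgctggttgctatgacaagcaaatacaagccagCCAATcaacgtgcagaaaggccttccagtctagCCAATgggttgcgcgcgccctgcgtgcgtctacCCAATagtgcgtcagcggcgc
Top2a (chr11:99024190-99024426, minus strand): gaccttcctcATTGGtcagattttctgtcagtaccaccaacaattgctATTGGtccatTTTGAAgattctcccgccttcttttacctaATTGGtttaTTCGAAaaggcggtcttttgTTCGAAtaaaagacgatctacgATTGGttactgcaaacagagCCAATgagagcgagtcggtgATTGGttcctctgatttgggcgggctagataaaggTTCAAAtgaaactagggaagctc

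In these sequences Ube2c had 6 CCAAT matches spread over the stretch, among them CCAATTGG, which holds overlapping matches on opposite strands and was counted as 2, and its single CHR covered positions -29 to -24. Cdk1 had CHR matches at -71 to -66 and at -15 to -10, with CCAAT matches between and before them. Ccnb2 had 3 CCAAT matches, starting at -87, -54 and -21, and besides the CHR printed a further one at positions 5 to 10, just past the printed stretch. Top2a had 4 CHR matches, of which those at -140 and -120 had the form TTCGAA, and 6 CCAAT matches.

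**Figure D2:**
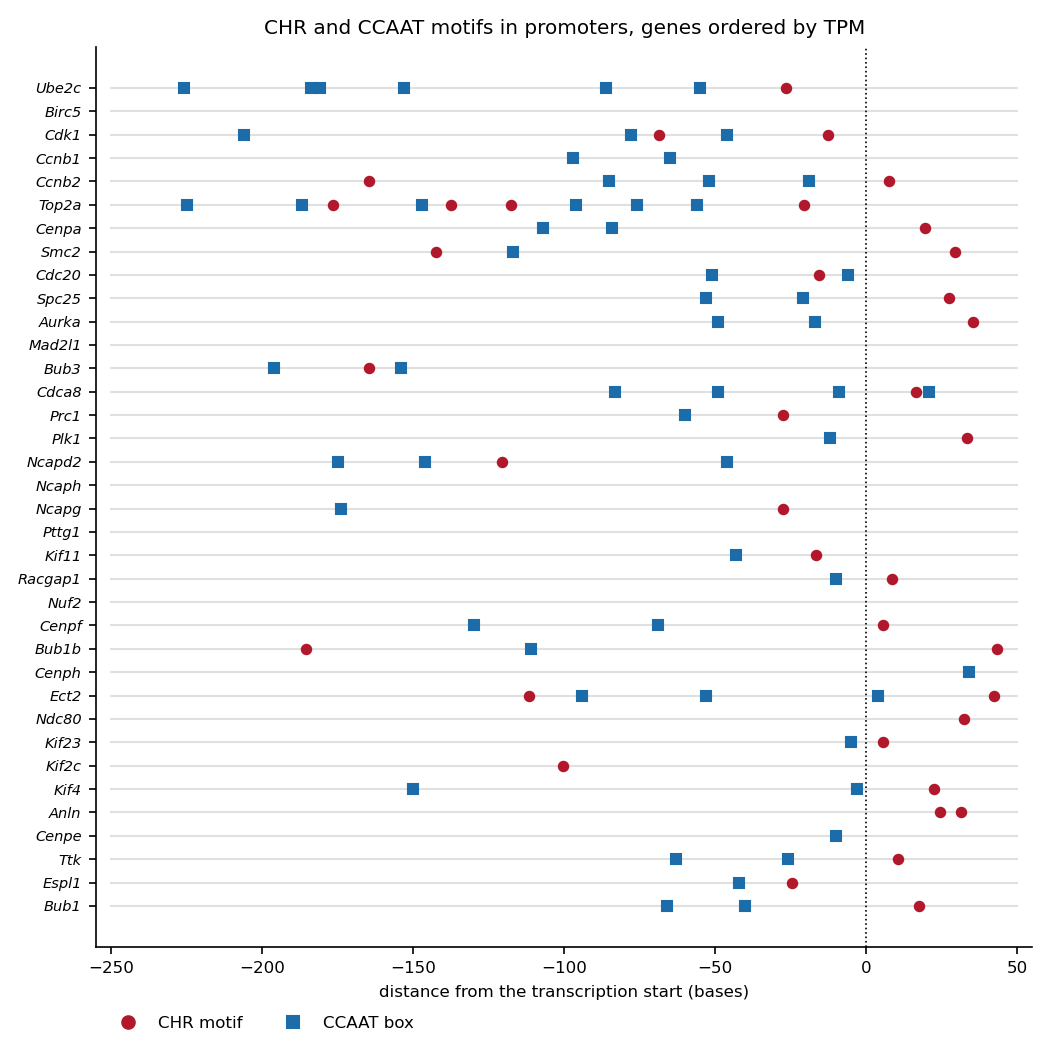
Positions of CHR matches (circles) and CCAAT matches (squares) in the promoters of the 36 mitotic genes with a matched promoter, as distance in bases from the annotated start, with 1 window per gene and genes ordered by mean TPM from the top. CHR matches gather near the start and CCAAT matches lie mostly before it, as does most of the window, and 5 genes have neither.

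The entry kinase and its cyclins were among the highest of the set. Cdk1 (ENSMUSG00000019942.8, GRCm38 chromosome 10, 69335146 to 69352938), the catalytic subunit that triggers mitosis, had 284 and 291 TPM (mean 288 ± 5.30, SD, n = 2). Ccnb1 (ENSMUSG00000041431.12, chromosome 13, 100778650 to 100786570), the main mitotic cyclin, had 207 and 235 TPM (mean 221 ± 19.7, SD, n = 2). Ccnb2 (ENSMUSG00000032218.6, chromosome 9, 70407692 to 70421547), its paralog, had 189 and 196 TPM. Ccnb1 exceeded Ccnb2 by 1.10-fold and 1.20-fold in TPM and by 1.78-fold and 1.95-fold in reads, and the TPM ranges of the 2 genes over the livers did not overlap. Cdk1 was above Ccnb1 by 1.37-fold and 1.24-fold per length, but at 0.513 and 0.453 of Ccnb1 in reads. Its gene total included annotated retained-intron transcripts, and its protein-coding transcripts alone had 171 and 170 TPM, below those of Ccnb1 at 201 and 229 TPM. Ccna2, the cyclin of S phase and early mitosis, had 240 and 275 TPM.

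Of the kinases that act beside CDK1, Aurka, which matures centrosomes and builds spindle poles, had 107 and 116 TPM. Plk1, which acts from mitotic entry to cytokinesis, had 62.5 and 71.3 TPM. Aurka exceeded its paralog Aurkb by 1.44-fold and 1.502-fold. TPX2, the spindle factor that binds and activates Aurora A, was encoded at 62.8 and 64.3 TPM, or 0.589 and 0.552 of the Aurka level, whereas in reads Tpx2 and Aurka stood at ratios of 1.01 and 0.997.

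The spindle checkpoint blocks anaphase while kinetochores are unattached, and its 5 genes spread widely, with a median of 32.8 and 38.5 TPM. Mad2l1, which encodes MAD2, the part of the inhibitor that seizes CDC20, had 93.4 and 96.2 TPM. Bub3, the adaptor that carries BUB1 and BUBR1 to kinetochores, had 84.8 and 92.8 TPM. These were the highest of the group in both livers. Bub1b, which encodes BUBR1, had 32.8 and 38.5 TPM. Ttk, the MPS1 kinase that starts checkpoint signalling, had 14.6 and 15.5 TPM. Bub1 (ENSMUSG00000027379.9, chromosome 2, 127801122 to 127831865), the kinase that marks centromeric chromatin, had 9.41 and 11.9 TPM (mean 10.6 ± 1.75, SD, n = 2) and was the lowest of all 42 genes in both livers. Bub1 stood at 0.287 and 0.309 of Bub1b, and Mad2l1 at 2.85-fold and 2.502-fold above Bub1b. Counted in reads rather than per length, Mad2l1 and Bub1b were close, at 1.09 and 0.981.

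The outer kinetochore binds microtubules through the NDC80 complex, whose 4 subunits are known to form a single rod in equal numbers. Their RNA levels were not equal, and the amounts of protein were not measured. Spc25 had 121 and 129 TPM, Spc24 51.3 and 52.5 TPM, Nuf2 35.2 and 37.2 TPM, and Ndc80 27.1 and 26.1 TPM. The order was the same in both livers, and no pair of subunits overlapped. The highest exceeded the lowest by 4.46-fold and 4.95-fold per length, and by 2.69-fold and 2.98-fold in reads. The microtubule-binding pair was the closer, with Nuf2 at 1.302-fold and 1.42-fold of Ndc80. In the pair that anchors the rod, Spc25 stood at 2.35-fold and 2.46-fold of Spc24.

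Among the centromere proteins, Cenpa (ENSMUSG00000029177.5, chromosome 5, 30666777 to 30674830), the histone H3 variant that marks the centromere, had 151 and 167 TPM. Cenph, a subunit of the inner kinetochore network, had 32.9 and 33.0 TPM. Cenpf, a large protein of the outer kinetochore, had 35.0 and 37.0 TPM, and Cenpe, the kinesin that carries chromosomes to the metaphase plate, had 17.3 and 18.3 TPM. Cenpa stood above the other 3 without overlap in TPM, and this held for its protein-coding transcripts alone at 75.2 and 82.0 TPM. In reads the gap to the 2 longer genes was smaller. Cenpa had 7105 and 5482 reads, Cenpe 5577 and 4090, and Cenpf 5194 and 3973.

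The chromosomal passenger complex corrects faulty attachments through Aurora B. Birc5 (ENSMUSG00000017716.11, chromosome 11, 117849251 to 117855743), which encodes survivin, had 305 TPM in each liver. Cdca8, which encodes borealin, had 74.7 and 83.4 TPM, and Aurkb had 74.0 and 77.5 TPM. Incenp, the scaffold that joins the kinase to the other subunits, had 27.3 and 32.2 TPM. Birc5 exceeded Incenp by 11.2-fold and 9.47-fold, the widest gap per length of the 4 assemblies compared. Cdca8 was above Aurkb in each liver, although their ranges over the livers overlapped. In reads the gap between Birc5 and Incenp was 3.11-fold and 2.63-fold, in replicate 2 narrower than that of the NDC80 complex, and the per-length value rests on an effective length of 867 nucleotides for Birc5 and 3118 for Incenp in replicate 1.

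**Figure D3:**
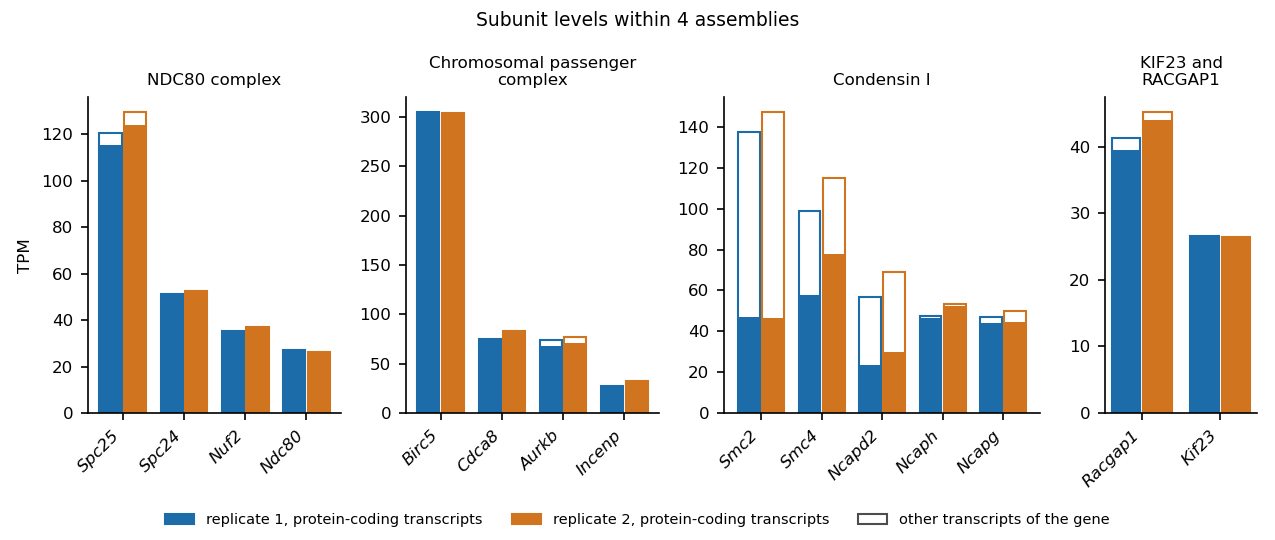
TPM of the subunits of the NDC80 complex, the chromosomal passenger complex, condensin I and the KIF23 and RACGAP1 pair, with bars for replicate 1 and replicate 2 from an axis that starts at 0. Filled parts are protein-coding transcripts and open parts are other annotated transcripts of the gene. In condensin I the open parts are large for Smc2, Smc4 and Ncapd2, and the order of subunits by filled height differs from that by total height.

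Spindle assembly genes had a median of 33.8 and 35.6 TPM. Tpx2 led, followed by Kif11, which encodes the EG5 motor that pushes spindle poles apart, at 43.1 and 45.5 TPM. Kif2c, the microtubule depolymerase MCAK, had 24.5 and 25.7 TPM, and Kif4, a chromosome-bound motor encoded on the X chromosome, had 19.3 and 20.4 TPM. In TPM the 4 genes had the same order in both livers without overlap. Counted in reads the order differed. Kif11, with 8514 and 6242 reads, was above Tpx2 with 7927 and 5939. Kif4, with 3768 and 2788 reads, was above Kif2c with 2645 and 2014. Exons of Kif4 overlap those of Pdzd11 on the opposite strand, which had a mean of 56.2 TPM, and it is not stated that counting used strand, so the 2 genes may have shared reads.

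The central spindle forms between separating chromosomes and directs the cleavage furrow. Prc1, the protein that bundles antiparallel microtubules there, had 72.6 and 77.7 TPM. Kif20a, the motor MKLP2 that brings the passenger complex to the central spindle, had 49.7 and 55.2 TPM, and its exons overlap those of Cdc23 on the opposite strand, at a mean of 32.0 TPM. Racgap1 and Kif23 encode the centralspindlin complex, a tetramer with equal numbers of each. At the RNA level Racgap1 had 41.3 and 45.2 TPM and Kif23 had 26.6 and 26.4 TPM, a ratio of 1.55-fold and 1.71-fold. Ect2, the exchange factor that activates RhoA at the furrow, had 29.97 and 33.1 TPM, and Anln, which encodes the furrow scaffold anillin, had 16.6 and 19.9 TPM.

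At the step that ends mitosis, Ube2c (ENSMUSG00000001403.9, chromosome 2, 164769898 to 164778822), the ubiquitin-conjugating enzyme that starts chains for the anaphase-promoting complex, had 435 and 461 TPM (mean 448 ± 18.5, SD, n = 2), the highest of the 42 in both livers. Cdc20, the activator that the checkpoint restrains, had 121 and 139 TPM, and its exons overlap those of Elovl1 on the opposite strand, at a mean of 71.4 TPM. Cdc20 exceeded Fzr1, which encodes the later activator CDH1, by 1.87-fold and 2.01-fold per length and by 1.09-fold and 1.14-fold in reads. Ube2c likewise exceeded Ube2s, the enzyme that extends the chains, by 1.78-fold and 1.72-fold.

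Separase and its inhibitor securin gave opposite orders on the 2 scales. Pttg1 (ENSMUSG00000020415.12, chromosome 11, 43420250 to 43426251), which encodes securin, had 47.4 and 41.8 TPM. Espl1 (ENSMUSG00000058290.3, chromosome 15, 102296266 to 102324357), which encodes the separase that cuts cohesin, had 11.4 and 13.1 TPM. Per length Pttg1 stood 4.17-fold and 3.18-fold above Espl1, whereas in reads it stood at 0.403 and 0.302 of Espl1, which has the longer transcript. Pttg1 had the fewest reads of the 42 genes, 1251 and 753, and these give a counting error of up to 3.64%.

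Condensin I and topoisomerase II fold and untangle chromosomes. Top2a (ENSMUSG00000020914.13, chromosome 11, 98992943 to 99024189), the topoisomerase of dividing cells, had 162 and 177 TPM and, by reads, was the most sequenced of the set. Smc2 and Smc4, the ATPase pair shared by condensins I and II, had 138 and 147 TPM and 98.9 and 115 TPM. In these gene totals the subunits particular to condensin I were lower. Ncapd2 had 56.7 and 69.1 TPM, Ncaph 47.6 and 53.5 TPM, and Ncapg 47.0 and 50.2 TPM. Smc2 exceeded Ncapg by 2.93-fold in each liver per length, and by 1.40-fold and 1.46-fold in reads.

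The order within condensin I changed when only protein-coding transcripts were counted. On that count Smc4 had 57.6 and 77.8 TPM and was highest. Smc2 had 46.7 TPM in each liver, near Ncaph at 46.7 and 52.55 TPM and Ncapg at 44.1 and 44.3 TPM. Smc2 was thus below Ncaph in replicate 2. Ncapd2 had 23.7 and 29.7 TPM and was lowest, with a gap of 2.43-fold and 2.62-fold between highest and lowest. Of that Smc4 level, 52.5 and 65.1 TPM lay on the short Smc4-206, and the full-length coding Smc4-201 had 5.17 and 6.93 TPM, so the place of Smc4 rests on a short annotated transcript. Against condensin II, which acts earlier in mitosis, gene totals of Ncapd2 were 3.02-fold and 3.09-fold those of Ncapd3, and of Ncapg 1.95-fold and 2.00-fold those of Ncapg2. In reads these ratios were 1.27 and 1.31 for Ncapd2 and 1.05 and 1.02 for Ncapg. Ncaph ran the other way at 0.558 and 0.610 of Ncaph2.

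The order of the 42 genes was nearly the same in both livers. Their rank correlation was 0.996 (Spearman over 42 genes, given as a description), 21 genes had the same rank, and no gene moved by more than 3 ranks. Of the 41 pairs of neighbours in the order, 18 had ranges over the livers that did not overlap and 23 had ranges that did. Of those 23 pairs, 11 nevertheless had the same order within each liver. None of these order values was computed over all genes, so they do not set the 42 genes apart. Genes of 1 library share its scale, and in TPM most of the 42 were higher in replicate 2, a direction that changed in CPM. Shorter transcripts tended to have higher TPM, with a Spearman correlation between TPM and effective length of -0.66 over the 42 genes, compared with -0.32 over the 11375 detected genes. Genes in each correlation share the same libraries. The assignment of reads to genes added little error to their counts. The deposited posterior SD was 0 in both livers for 29 genes and at most 0.308% of the count for the others. That lies below the counting error of 0.657% to 3.64%. TPM also depends on how reads are split among transcripts, which that SD does not cover. In replicate 2 the deposited TPM bounds were 33.5 to 39.8 for Cenpf, which has 6 transcripts, at a counting error of 1.59%. For Cenpe, which has 1 transcript, they were 17.3 to 18.4, at a counting error of 1.56%.

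Transcript use was also compared between the livers. Of the 42 genes, 11 had a single annotated transcript and 31 had several. Among those 31, the transcript holding most of the TPM was the same in both livers for 28, beside 94.7% of 4039 protein-coding genes of several transcripts, and Cenpf, Kif20a and Prc1 were the exceptions. The median share held by the leading transcript was 83.9% and 81.3%. Ube2c-202, Birc5-201 and Cdca8-202 held nearly the whole of their genes, and 10 genes had a leading transcript of at least 90% in both livers. Neither the median share nor this count was computed over all genes, so they do not set the 42 genes apart.

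Shares moved more in 3 genes with several similar coding transcripts. Ect2, with the largest difference in its leading transcript, had 71.1% and 51.2% on Ect2-202, 7.01% and 33.8% on Ect2-207, and 15.2% and 1.97% on Ect2-203. Pttg1 had 62.2% and 46.6% on Pttg1-202, and 6.64% and 24.0% on Pttg1-205. Kif20a had 60.2% and 49.4% on Kif20a-202, with the remainder on Kif20a-201. The median difference in leading share between livers was 1.37 percentage points, and these 3 genes had the largest differences. These transcripts overlap over most of their length, and the shares are model estimates from short reads.

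In 7 of the 42 genes, protein-coding transcripts held under 70% of the gene's TPM in both livers: Cdk1, Cenpa, Cenpf, Ncapd2, Smc2, Smc4 and Top2a. Of 5330 protein-coding genes compared the same way, 13.3% fell under that limit. In Smc2 the short processed transcript Smc2-203 held 57.1% and 58.4% of TPM but 18.5% and 19.2% of reads, while the full-length coding Smc2-201 held 21.2% and 21.1% of TPM and 67.0% and 67.8% of reads. In Top2a the coding Top2a-201 held 61.5% and 62.8% of TPM and 92.2% and 92.7% of reads. In Cenpf the full-length Cenpf-204 held 20.6% and 21.7% of TPM and 64.2% and 64.9% of reads. Reads on short annotated fragments therefore weigh more per length, and TPM of these genes depends on the annotation. In 2 of the genes a transcript annotated for nonsense-mediated decay was prominent by reads as well. Cenpa-202 held 36.3% and 40.6% of TPM and 34.0% and 37.9% of reads, and the long Smc4-207 held 34.7% and 25.1% of TPM and 62.7% and 47.8% of reads.

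**Figure D4:**
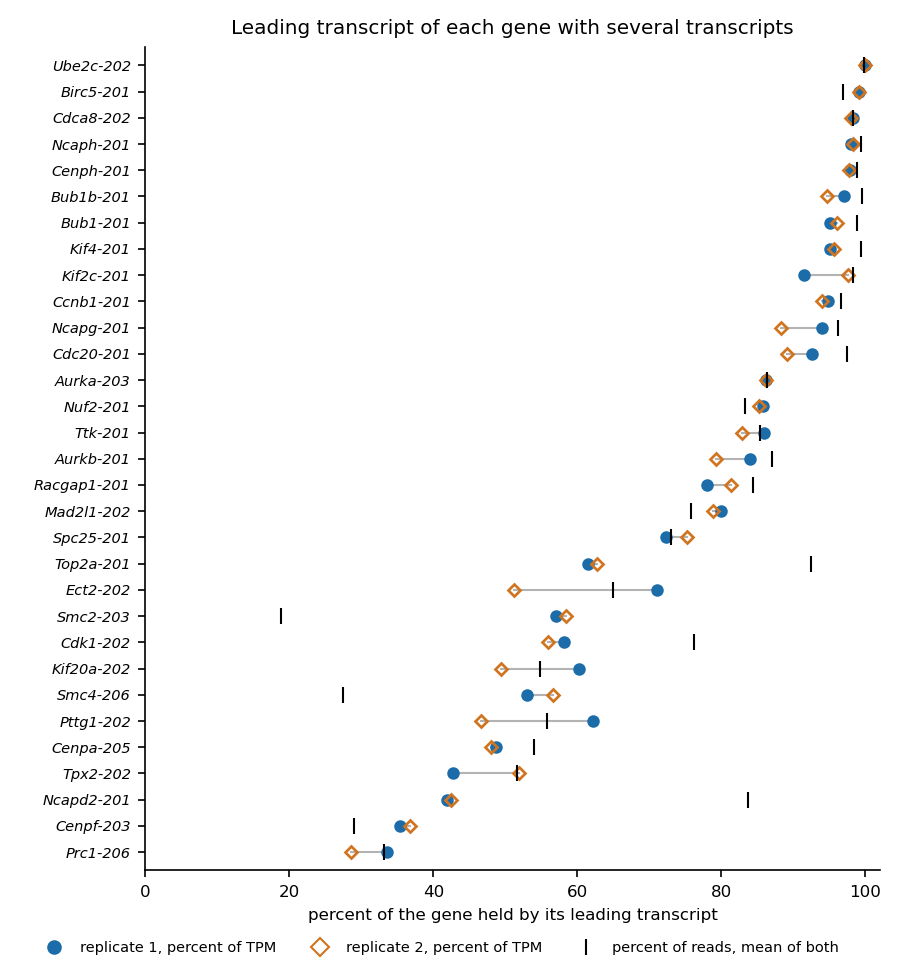
Share of TPM (percent) on the leading transcript, for the 31 mitotic genes with several annotated transcripts, with a filled circle for replicate 1, an open diamond for replicate 2 and a tick for the percent of reads as the mean of both livers. Most pairs of symbols lie close together, Ect2, Pttg1 and Kif20a are spread, and the ticks lie far from the symbols for Smc2, Smc4, Ncapd2 and Top2a.

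Between the livers, the median difference of the 42 genes was close to that of all genes. The log2 ratio of TPM with a pseudocount of 1, replicate 1 over replicate 2, had a median of -0.10 over the 42 genes and -0.09 over 5564 genes that averaged at least 10 TPM. It ran from -0.31 for Bub1 and -0.28 for Ncapd2 to 0.18 for Pttg1. None of the 42 was 2-fold apart, beside 0.180% of the 5564 genes. In TPM 38 of the 42 were higher in replicate 2, beside 76.3% of all these genes, and Ndc80, Birc5, Kif23 and Pttg1 were the exceptions. That direction depended on the scale. In CPM, read counts scaled to library size with TMM factors and not to length, 20 of the 42 were higher in replicate 2, beside 44.3% of all genes, and the medians were 0.02 for the 42 genes and 0.02 for all genes. Relative to the all-gene median, 22 of the 42 lay below it in TPM. The neutrophil and megakaryocyte markers given above moved by more between the livers, in opposite directions, with medians of 0.35 and -0.32, and their part in these values was not tested.

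**Figure D5:**
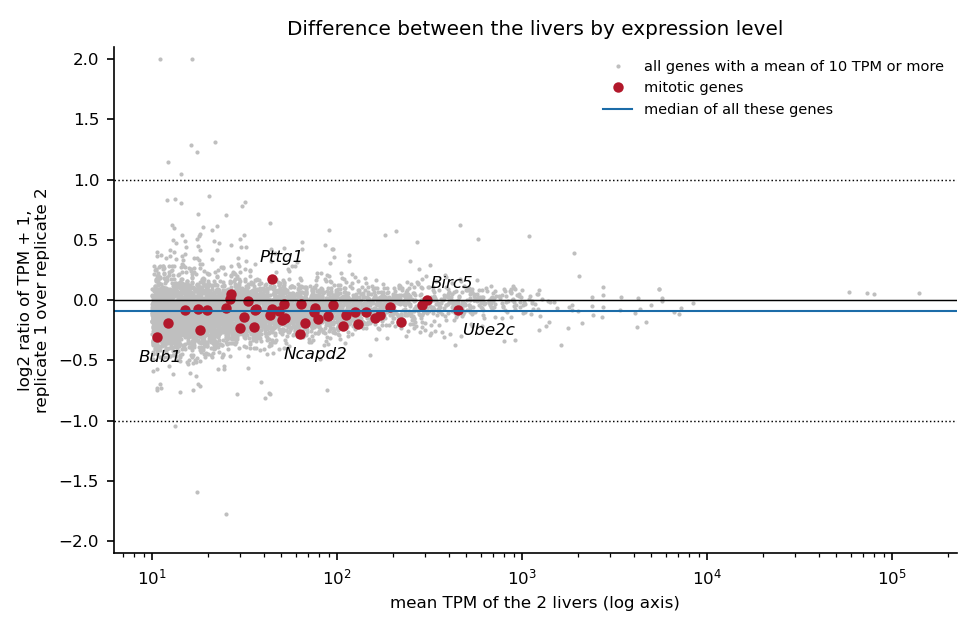
Log2 ratio of TPM + 1, replicate 1 over replicate 2, against mean TPM on a log axis, with each of 5564 genes as a grey point and the 42 mitotic genes as red points. The blue line is the median of all these genes, the dotted lines mark 2-fold, and 2 genes above a log2 ratio of 2 are drawn at 2. The mitotic genes lie around the blue line, between -0.31 and 0.18.

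The rest of the mitotic pathway was described from 104 further genes in 10 lists, all of which reached 1 TPM in both livers, with a median of 21.9 and 23.3 TPM. In the kinetochore, the MIS12 and KNL1 complexes, which link centromere to NDC80, had a median of 30.6 and 32.6 TPM, with Zwint highest at 122 and 125 TPM and Nsl1 lowest at 7.07 and 9.38 TPM. The SKA complex, which tightens the grip of NDC80 on microtubules, had a median of 17.5 and 18.2 TPM, from Ska3 at 7.27 and 8.34 TPM to Ska2 at 19.7 and 19.5 TPM. The RZZ complex with SPDL1, which recruits dynein to kinetochores, was the lowest of the 10 lists at 11.4 and 12.5 TPM, from Kntc1 at 8.22 and 9.11 TPM to Zw10 at 17.9 and 18.8 TPM. Of 15 other centromere proteins, Cenpx was highest at 104 and 98.0 TPM and Cenpb, which binds a motif in centromeric repeats, was lowest of all 104 genes at 2.16 and 2.46 TPM.

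Among the regulators, the 17 genes of the anaphase-promoting complex and its partners had the highest list median, 41.4 and 44.2 TPM, from Anapc10 at 6.04 and 6.68 TPM to Ube2s at 244 and 267 TPM. Entry control genes ranged from Mastl, the Greatwall kinase that restrains a CDK1-opposing phosphatase, at 5.07 and 5.87 TPM to Cks2, a small partner of CDK1, at 400 and 404 TPM. Cohesin and its protectors had a median of 25 and 29.5 TPM, from Nipbl at 5.60 and 5.83 TPM to Smc1a at 40.9 and 46.3 TPM. Condensin II had a median of 24.0 and 25.03 TPM. Of 20 other spindle and cytokinesis genes, Kpna2 was highest at 244 and 252 TPM and Cep55, an abscission factor, lowest at 3.69 and 3.96 TPM. The 15 regulators of late cell cycle transcription had a median of 16.0 and 17.5 TPM, close to that of entry control at 16.6 and 18.45 TPM. Foxm1 had 9.78 and 10.2 TPM and Mybl2 had 25.2 and 27.8 TPM, and the list ran from Rbl2 at 3.64 and 4.89 TPM to Rbbp4, a histone-binding protein of many complexes, at 193 and 200.2 TPM.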

How the data were processed

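RNA from 2 livers was sequenced as 1 library each, and the authors deposited tables per gene and per transcript. Per the deposited description these used build mm10 and GENCODE M4. The aligner and counter remain not given in the sources used here. Per the file headers, expected counts (estimated reads, not normalized), TPM and FPKM were deposited by the authors for genes and transcripts. A transcript's percent of its gene's TPM was deposited too, as was a score, the posterior SD of each count. No source states whether counting used strand. TPM is scaled over all rows, spike-ins included, so it moves with the most abundant RNAs, and short annotated transcripts weigh more in it than in reads.

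The genes, and the lists beside them, were chosen with earlier results of these data known. All 42 genes are named, with the highest and lowest of each further list. Foxm1, Mybl2, Fzr1, Ccna2, Ncapg2, the overlapping genes Pdzd11, Cdc23 and Elovl1, and the markers Myl7, Myh6 and Myod1 were named outside that rule, after values were seen. Symbols, positions and transcript types came from GENCODE M21 on the same build by identifier without version, and promoters from RefSeq. Detection was set at 1 TPM. The ratio used genes with a mean of 10 TPM and 50 summed expected counts, and a pseudocount of 1, which understates differences of low genes. Only the 2-fold call was tried on simulated data, which held counting error and no variation between livers. There the median log2 ratio was subtracted, which was not done for the ratios given here. Levels, subunit gaps, transcripts and motifs were not covered by it. CPM used TMM factors of 0.981 and 1.02 from edgeR 4.0.16 in R 4.3.3, without a test. Other steps ran in Python 3.11.15 (pandas 2.3.3, numpy 2.4.6, scipy 1.17.1, matplotlib 3.10.9).

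Alternatives were other pseudocounts, units, filters, detection limits and promoter windows, TPM without globin genes, posterior mean TPM, and each library alone. Counts over protein-coding transcripts alone and 2 of the promoter windows were added after seeing the data. The replicates are separate livers by the labels. Intervals cover counting error only.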

Additional observations from a re-analysis of the deposited data

How the results depend on the processing

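No paired analysis was possible because there was 1 group. The mitotic median stood 5.43-fold above the detected genes on average. It stood 6.05-fold above in CPM with TMM factors, 5.24-fold in posterior mean TPM and 6.39-fold over protein-coding transcripts alone, and 5.38-fold to 5.49-fold with a library left out. The 6.39-fold does not compare protein-coding genes alone, since detected genes without a protein-coding transcript stayed in and counted as 0. On that count the mitotic median itself was lower, at 46.9 and 49.6 TPM instead of 50.5 and 54.4 TPM. In CPM, which are not scaled to length, the gaps between highest and lowest subunit were 2.83-fold instead of 4.71-fold in the NDC80 complex, 2.87-fold instead of 10.3-fold in the chromosomal passenger complex, 1.83-fold instead of 2.93-fold in condensin I and 1.32-fold instead of 1.63-fold for RACGAP1 and KIF23. Condensin I gave 2.91-fold in posterior mean TPM and 2.52-fold over protein-coding transcripts. With a library left out these gaps ranged from 4.46-fold to 4.95-fold, 9.47-fold to 11.2-fold, 2.93-fold to 2.93-fold and 1.55-fold to 1.71-fold.

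The median log2 ratio of the mitotic genes was -0.10 in TPM and 0.015 in CPM. Of 5564 genes, 10 were 2-fold apart, against 6 with a pseudocount of 5 and 6 in CPM. The count was 40 of 11484 when genes averaging 1 TPM were admitted and 146 of 21447 unfiltered. None of the 42 was 2-fold apart under any of these, which says little about them at such small shares of all genes. The mitotic genes held 0.758% of reads on average, 0.413% of TPM, and 0.944% of reads without globin genes. The leading transcript held a median of 81.6% of TPM and 85.3% of reads, and 81.3% to 83.9% of TPM with a library left out. CHR matches were found in 28 genes over the whole window, 15 in the 250 bases before the start and 9 in the 100 bases before it. Of 84 other values, 58 counted as unchanged and 26 as moved. For levels and ratios the limit was the spread between livers. A level with 1 library left out could not count as moved, since it always lies within that spread. Counts of mitotic genes 2-fold apart were compared for equality. Changes of direction were not assessed. CPM is not scaled to length by construction, and the cause of the other shifts was not tested. With 2 libraries, the SD is itself imprecise.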
